A study of Trichechus manatus latirostris with 11 samples.

Results

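The lysosome and autophagy genes described here encode the digestive enzymes, activators and membrane proteins of the lysosome, the TFEB family of transcription factors, and the proteins that build the autophagosome. Members were chosen by symbol from a list of 52 genes, and a row of the results table was counted when its transcript record, read without version number, carried one of these symbols in the RefSeq annotation of the manatee assembly TriManLat1.0. Of the 52 genes, 37 had a row, in 39 of the 15298 rows of the table, and the whole table named 9641 symbols. The other 15 members, CTSL, GAA, IDUA, IDS, SGSH, MAN2B1, NPC1, LAMP1, CD63, TFEB, ULK1, ATG13, ATG5, ATG7 and ATG12, were not analysed here.

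RNA from the buffy coat, the layer of white blood cells and platelets that forms when blood is spun, was depleted of globin and ribosomal transcripts and sequenced from 11 adult Florida manatees. The red tide group (n = 4) was brought to Lowry Park Zoo with red tide illness, with 2 animals sampled on arrival and 2 after a week of treatment. Each group held 1 female. The control group (n = 7) held 4 animals sampled at Crystal River, 2 from the Indian River Lagoon and 1 at Lowry Park Zoo that was getting over pneumonia. The comparison asked how white blood cell transcripts differed after red tide exposure. All red tide animals were sampled during the bloom and all controls later, so time of collection cannot be told apart from group. Place was tied to group except for the 1 control at the zoo. Veterinary care was tied to it less closely, since 2 red tide animals were sampled on arrival. The sources describe freezing for the red tide buffy coats and RNAlater, a preservative, for every animal, so it is uncertain whether storage also differed.

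The table held no column of a single animal. It held, for each transcript record, the authors' mean of normalized counts, that is, read counts divided by a size factor that scales each library for depth, over all libraries and in each of 2 groups. The overall mean was the average of the group means weighted 4 to 7 in every row, so the groups are called here the 4-library mean and the 7-library mean. That the 4-library mean belongs to the red tide animals rests on these sizes and on the title of the table, since its columns name neither group. The authors' own fold change divides the other way, the 7-library mean by the 4-library mean, and the study words its changes in red tide by that column, so its up and down are opposite to the signs used here. All ratios below are the 4-library mean over the 7-library mean, so a negative log2 ratio is lower in the 4-library mean.

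A read adds a constant amount to its group mean, set by the size factor of the library it came from, so whole-number reads of single libraries could be recovered for weakly expressed rows. The size factors were 1.56, 1.03, 0.620 and 0.372 in the 4-library group, and ranged from 0.702 to 1.73 in the 7-library group, with a median of 1.17. The smallest library of the 4 was therefore the least precise, with 1 read worth 2.69 normalized counts there and 0.641 in the largest. Libraries are named by size factor below, in that order, and are not linked to animals. Reads were recovered in the 4 libraries for 18 members and in all 11 libraries for 4 of them.

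Lysosomes are acidic organelles in which hydrolases break down proteins, glycans and lipids delivered by endocytosis, phagocytosis and autophagy. In autophagy a membrane forms around cytoplasm, is coated with lipid-bound proteins of the ATG8 family, and fuses with the lysosome. TFEB and its relatives TFE3 and MITF activate many genes of both systems, and phagocytic white blood cells such as neutrophils, monocytes and macrophages rely on lysosomes to digest microbes and dead cells.

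Of the 37 members, 22 were within 1.5-fold between the group means. TFE3, BECN1 and ATG16L1 were at least 2-fold higher in the 4-library mean, and ATG9A and ATG10 were at least 2-fold lower. ATG9A passed 2-fold through 1 of the 7 libraries (log2 ratio -1.49, and -0.29 without it) and TFE3 through 1 of the 4 (1.07, and -0.12 without it). These are 3 of 37 members (8.11%) higher, against 24.5% of the 9641 symbols, and 2 of 37 (5.41%) lower, against 9.48%. All 5 encode a transcription factor or autophagy proteins, and none of the 21 lysosomal enzymes, activators, membrane proteins and channels passed 2-fold. Rows with few reads often passed 2-fold, so the same counts were made for symbols with an overall mean of at least 10 normalized counts. Among the 34 members above that level, 3 were higher, against 12.7% of 6632 symbols, and 1 was lower, against 8.72%.

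At a smaller difference the members leaned towards lower values. At 1.5-fold, 11 of 37 members (29.7%) were lower in the 4-library mean, against 19% of all symbols, and 4 (10.8%) were higher, against 34.4%. With the minimum of 10 normalized counts, 9 of 34 members (26.5%) were lower, against 20.3%, and 3 (8.82%) were higher, against 23.3%. The median log2 ratio of the members was -0.11, with quartiles of -0.72 and 0.20. It was 0.17 over all symbols, 0.14 over all rows and 0.01 over symbols with a mean of at least 10. When ratios were centred on the median of all rows, the split of 3 members higher and 2 lower became 2 higher and 7 lower, since CTSD, GUSB, PSAP, SMPD1 and GABARAP then passed 2-fold and TFE3 no longer did. This centring lowers the ratio of every symbol by the same 0.14. No share of all symbols under it is given here, so the centred split is not read as a result about the members. Centred on the median of rows with a mean of at least 10, an alternative added after seeing the data, the split was again 3 and 2.

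**Figure D1:**
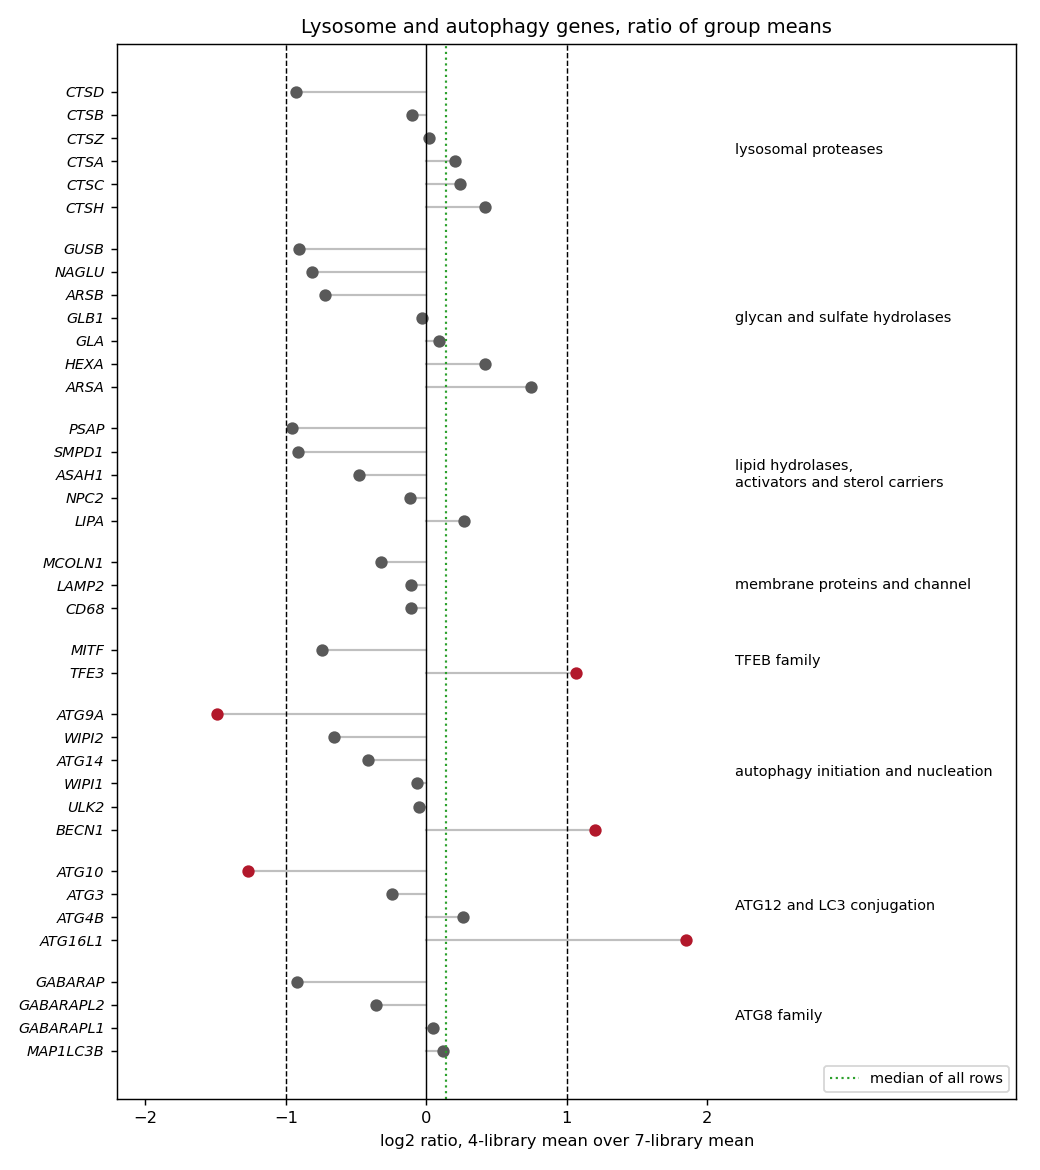
Log2 ratio (4-library over 7-library mean) of the 37 members with a row, grouped by role; dashed lines mark 2-fold, the dotted line the median of all rows (0.14), and points at least 2-fold apart are red. Only 5 members lie outside the dashed lines, and 5 others (CTSD, GUSB, PSAP, SMPD1 and GABARAP) lie between -0.95 and -0.91, just inside the lower one.

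The lysosomal proteases differed little, with CTSD as the exception. CTSD, cathepsin D, the main aspartic protease of the lysosome, had a 4-library mean of 87.9 and a 7-library mean of 167 normalized counts. By library, in the order of size factors given above, its normalized counts were 89.2, 91.5, 58.0 and 113. All 4 values lay below the 7-library mean and came from 311 reads in all. The log2 ratio was -0.93, and it ranged from -1.07, past 2-fold, without the library of size factor 0.372 to -0.77 when each of these libraries was left out in turn.

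The other 5 proteases with a row had ratios close to 0 or slightly above it. CTSH, an aminopeptidase of the cathepsin family, had means of 533 and 400 (log2 ratio 0.42), the largest difference towards higher values among them. CTSC, which activates the serine proteases of neutrophil and lymphocyte granules, had means of 4746 and 4028 (0.24). Its weaker record lay on the same side, with means of 364 and 300 (0.28). CTSA, which protects GLB1 and neuraminidase in a complex, had a log2 ratio of 0.20, and CTSB, a cysteine protease, one of -0.10. CTSZ, a carboxypeptidase, was the member nearest to equal means, with 720 and 712 (0.02).

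Of the 7 enzymes that cleave glycans and sulfate esters, 3 were at least 1.5-fold lower in the 4-library mean and 1 was at least 1.5-fold higher. Of all symbols 19% were lower and 34.4% higher by this measure, and of those with a mean of at least 10, 20.3% and 23.3%. None of the 7 passed 2-fold. GUSB, the beta-glucuronidase that degrades glucuronic acid-containing glycosaminoglycans, had normalized counts of 107, 37, 61.2 and 121 in the 4 libraries, all below the 7-library mean of 153. Its 4-library mean was 81.6, and the log2 ratio was -0.91, with a range of -1.16 to -0.67 on leaving out each library, past 2-fold without that of size factor 0.372 (-1.16) or 1.56 (-1.07). NAGLU, which acts on heparan sulfate, had 87.9, 48.7, 46.7 and 67.3 normalized counts in the 4 libraries. All of these lay below the 7-library mean of 110, and the 4-library mean of 62.6 gave a log2 ratio of -0.81, or -1.02 without the library of size factor 1.56. ARSB, the sulfatase of dermatan and chondroitin sulfate, had means of 165 and 272 (-0.72), and its reads by library could not be recovered at that level.

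ARSA, the sulfatase that removes sulfate from sulfatides, had a higher 4-library mean, but its libraries overlapped. The 4 libraries held 5, 2, 9 and 2 reads, or 3.21, 1.95, 14.5 and 5.38 normalized counts. In the 7 libraries the lowest value was 0, the median 0.904 and the highest 14.5, and 2 libraries had no read. The high value in each group came from a single library, and the groups overlapped over nearly the whole range. The mean was 6.26 ± 5.68 (SD, n = 4) against 3.73 ± 5.26 (SD, n = 7), a difference that did not pass the exact two-sided permutation test over the 330 ways of choosing 4 of 11 libraries (p = 0.491, 0.739 after Benjamini-Hochberg adjustment over the 4279 rows with reads in every library). Without the library of size factor 0.620 the log2 ratio of 0.75 became -0.09, without that of size factor 1.03 it was 1.05, and without the library at 14.5 in the 7-library group it was 1.69. Among the rest, HEXA, a subunit of the hexosaminidase that degrades the ganglioside GM2, had a log2 ratio of 0.42 and values of 69.9, 39.9, 17.7 and 43.0 around a 7-library mean of 31.9. GLA, the alpha-galactosidase, had a ratio of 0.09, and GLB1, the beta-galactosidase, was the member next nearest to equal means, with 224 and 230 (-0.03).

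Of the 5 lipid enzymes and helpers, 4 were lower in the 4-library mean, against 42.4% of all symbols and 49.4% of those with a mean of at least 10, and none passed 2-fold (median log2 ratio -0.48). PSAP, the precursor of the saposins that present sphingolipids to their hydrolases, had means of 177 and 342 (-0.95), the largest difference among lysosomal members. SMPD1, the acid sphingomyelinase, had 59.0, 38.0, 17.7 and 80.7 normalized counts in the 4 libraries against a 7-library mean of 92.2. Each of these values was below the 7-library mean, the library of size factor 0.620 the most so, and the 4-library mean of 48.9 gave a log2 ratio of -0.92. It passed 2-fold when the library of size factor 0.372 (-1.27) or that of size factor 1.56 (-1.02) was left out. ASAH1, the acid ceramidase, had means of 1372 and 1908 (-0.48). NPC2, which carries cholesterol inside the lysosome, had a ratio of -0.12, and LIPA, the acid lipase of cholesteryl esters and triglycerides, was the only one of the group on the other side (0.27).

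Among the proteins of the lysosomal membrane, all 3 with a row were within 1.5-fold. MCOLN1, a calcium-releasing channel of the lysosome, had means of 12.8 and 16.0 (-0.32). In the 4 libraries its normalized counts were 16.7, 18.5, 8.06 and 8.07, on both sides of the 7-library mean. LAMP2, which lines the membrane and serves in fusion and in chaperone-mediated autophagy, had means of 1120 and 1211 (-0.11). CD68, a heavily glycosylated membrane protein of phagocyte lysosomes, had means of 70.8 and 76.4 (-0.11), with 1 of the 4 libraries above the 7-library mean.

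**Figure D2:**
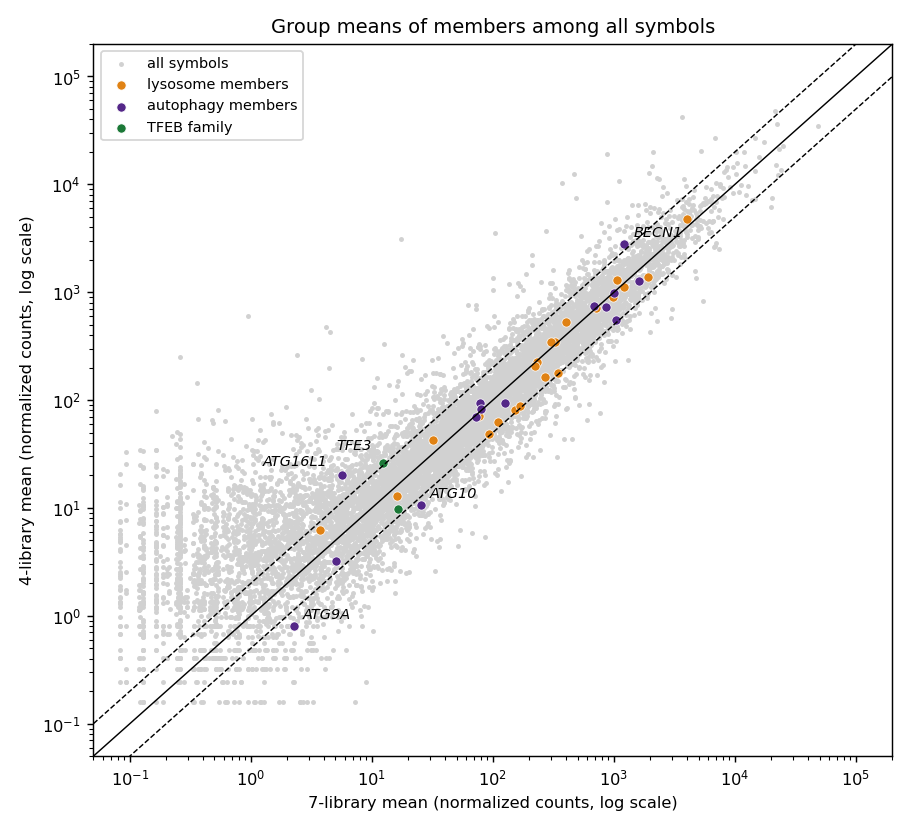
The 4-library mean against the 7-library mean (normalized counts, log scales) for all 9641 symbols (grey) and the 37 members (colours by role); the solid line marks equal means and the dashed lines 2-fold. The 3 members furthest above the diagonal are TFE3, BECN1 and ATG16L1, and the spread of all symbols widens towards low means, where ATG9A (0.807 and 2.27) lies.

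In the TFEB family the 2 members with a row lay on opposite sides. TFE3 had 8.98, 20.4, 4.84 and 69.9 normalized counts in the 4 libraries, from 14, 21, 3 and 26 reads. Only 2 of these values were above the 7-library mean of 12.5, and the library of size factor 0.372 alone held the high one. The 4-library mean of 26.1 gave a log2 ratio of 1.07. Without that library it was -0.12, so the 2-fold difference of TFE3 rested on 1 library with 26 reads. MITF had 18, 7.79, 8.06 and 5.38 normalized counts, with the library of size factor 1.56 alone above the 7-library mean of 16.4. Its 4-library mean of 9.80 gave a log2 ratio of -0.75, which became -1.22 without that library. The 7-library values of both genes are known only as a mean, so the overlap of the groups was not determined.

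Of the 6 initiation and nucleation genes, BECN1 was higher and ATG9A lower by at least 2-fold. BECN1, beclin 1, a subunit of the lipid kinase complex that starts the autophagosome membrane, had means of 2795 and 1219, a 2.29-fold difference (log2 ratio 1.20). It was the only 1 of the 5 members at least 2-fold apart whose reads could not be recovered in the 4 libraries, so its spread between animals is unknown. ATG9A, the lipid scramblase of the vesicles that seed the growing membrane, was detected with only 2, 2, 0 and 0 reads in the 4 libraries (1.28, 1.95, 0 and 0 normalized counts). In the 7 libraries the lowest value was 0, the median 1.81 and the highest 9.97, with 3 libraries at 0.

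The groups overlapped for ATG9A, since every value of the 4 libraries fell within the range of the 7. Its mean was 0.807 ± 0.971 (SD, n = 4) against 2.27 ± 3.54 (SD, n = 7), 2.81-fold lower with an exact 95% counting interval of 0.896-fold to 11.6-fold. The difference rested on the library of size factor 0.702 in the 7-library group, which held 9.97 normalized counts from 7 reads. Without it the 7-library mean was 0.988 and the difference 1.22-fold (log2 ratio -0.29), whereas without the library of size factor 1.03 in the 4-library group the log2 ratio was -2.41. The exact permutation test gave p = 0.591, and 0.816 after Benjamini-Hochberg adjustment. WIPI2, which recruits the ATG16L1 complex to the membrane, had 13, 3, 1 and 0 reads in the 4 libraries, or 8.34, 2.92, 1.61 and 0 normalized counts. Its 7 libraries ran from 2.56 through a median of 4.27 to 9.23, and 2 of the 4 libraries lay within that range and 2 below it. The mean was 3.22 ± 3.62 (SD, n = 4) against 5.09 ± 2.64 (SD, n = 7), with a log2 ratio of -0.66 (exact permutation p = 0.348, 0.618 after adjustment). Without the library of size factor 1.56 the log2 ratio was -1.75.

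The remaining initiation genes were closer to equal. ATG14, which targets the BECN1 complex to the site of autophagosome formation, had means of 94.3 and 126 (-0.41). By library it had 93.7, 52.6, 129 and 102 normalized counts, 1 of them above the 7-library mean. WIPI1, a phosphoinositide-binding relative of WIPI2, had a log2 ratio of -0.07, and ULK2, a kinase that starts the process, one of -0.05.

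The conjugation genes held both the highest and 1 of the lowest ratios of all members. ATG16L1, which directs the ATG12-ATG5 conjugate to the membrane where it attaches lipid to ATG8 proteins, had 32, 25, 11 and 7 reads in the 4 libraries, or 20.5, 24.3, 17.7 and 18.8 normalized counts. In the 7 libraries it ranged from 0 through a median of 6.54 to 13.7 normalized counts, with 2 libraries at 0. All 4 libraries were above all 7, so the groups did not overlap. Among the 4279 rows with reads in every library, 2.8% had all 4 libraries above all 7, and 0.0701% had all 4 below. These shares are not an even background, since rows entered with a 4-library mean up to 80 but a 7-library mean up to 6, a limit that also admitted ATG16L1. Among the 2954 rows with both means up to 6, which leave ATG16L1 out, the shares were 0.508% and 0.102%.

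The mean of ATG16L1 was 20.4 ± 2.89 (SD, n = 4) against 5.65 ± 5.29 (SD, n = 7), a 3.61-fold difference. The exact two-sided permutation test gave p = 0.00303, the smallest that the 330 splits allow, and 0.109 after Benjamini-Hochberg adjustment over the 4279 rows, so the difference did not pass the corrected threshold. On a log2(normalized count + 1) scale the exact permutation p was 0.0273, and 0.210 after adjustment. No row passed adjustment on either scale, while 926 of the 4279 rows (21.6%) had an unadjusted p under 0.05 on the scale of normalized counts. The same uneven limits favour low p-values among these rows, that of ATG16L1 included, and the adjusted p is taken over them. Among the 2954 rows with both means up to 6, 236 (7.99%) had an unadjusted p under 0.05, and none passed adjustment. The log2 ratio of 1.85 ranged from 1.75 to 1.91 when each of the 4 libraries was left out, and from 1.63 to 2.24 when each of the 7 was. A weaker second record of ATG16L1 had 1 read in each group.

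ATG10, the E2-like enzyme that joins ATG12 to ATG5, was the opposite case. Its normalized counts in the 4 libraries were 12.2, 16.5, 8.06 and 5.38, from 19, 17, 5 and 2 reads. All were below the 7-library mean of 25.4. The 4-library mean was 10.5, 2.41-fold lower (log2 ratio -1.27), and the ratio ranged from -1.57 to -1.05 on leaving out each library. ATG3, the E2-like enzyme that passes ATG8 proteins to lipid, had means of 721 and 853 (-0.24). ATG4B, the protease that trims them beforehand, had means of 93.5 and 77.9 (0.26), with 3 of the 4 libraries above the 7-library mean.

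The ATG8 family, whose lipid-bound forms coat the autophagosome and bind cargo receptors, was within 1.5-fold except for GABARAP. GABARAP had means of 550 and 1043, 1.90-fold lower in the 4-library mean (log2 ratio -0.92). GABARAPL2 had means of 1265 and 1620 (-0.36). MAP1LC3B, the LC3 protein most used as a marker of autophagosomes, had means of 747 and 688 (0.12). GABARAPL1 had a log2 ratio of 0.05, with normalized counts of 86.6, 64.3, 98.3 and 83.4 in the 4 libraries, 3 of them above the 7-library mean of 80.4.

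**Figure D3:**
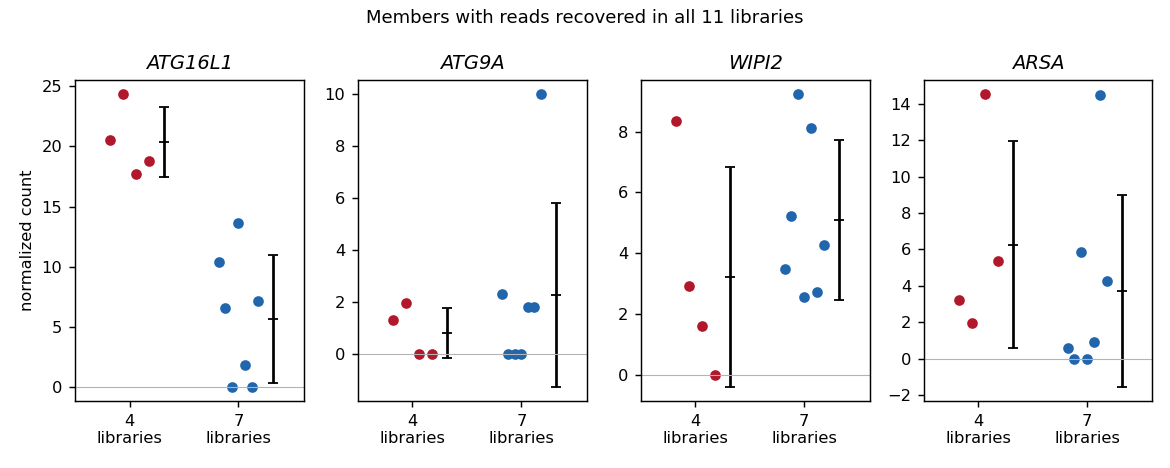
Normalized counts in each library (points) for the 4 members with reads recovered in all 11 libraries, with the mean and SD of each group beside the points; each panel has its own scale. For ATG16L1 the 4 libraries lie between 17.7 and 24.3 and the 7 libraries between 0 and 13.7, while the groups overlap for ATG9A, WIPI2 and ARSA.

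The 18 members with reads in the 4 libraries entered by a 4-library mean up to 100, so members low in these libraries entered more readily, CTSD and GUSB (7-library means of 167 and 153) among them, and BECN1 did not enter. Where a gene lay against the 7-library mean is therefore given gene by gene, with no count over the 18. Of these 18, 5 (CTSD, GUSB, GABARAPL1, ATG4B and ATG14) had 4-library means between 80 and 100, a range searched only after seeing the data. The coefficient of variation between the 4 libraries ran from 0.142 for ATG16L1 to 1.20 for ATG9A, with a median of 0.448. The library of size factor 0.620 was the lowest of the 4 for 9 of the 18 members, among them ATG9A, where it tied at 0 with the library of size factor 0.372, and MCOLN1, where these libraries were nearly equal (8.06 and 8.07). For 4 of the 18 members it was the highest. No share of all rows with recovered reads is given for these counts, so they are not read as a result about the members. Among the 13 members with a 4-library mean up to 80, 4 were at least 2-fold apart. That number was 8 without the library of size factor 1.56, with MITF, WIPI2, NAGLU and SMPD1 added, and 5, 4 and 4 without the libraries of size factor 1.03, 0.620 and 0.372.

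**Figure D4:**
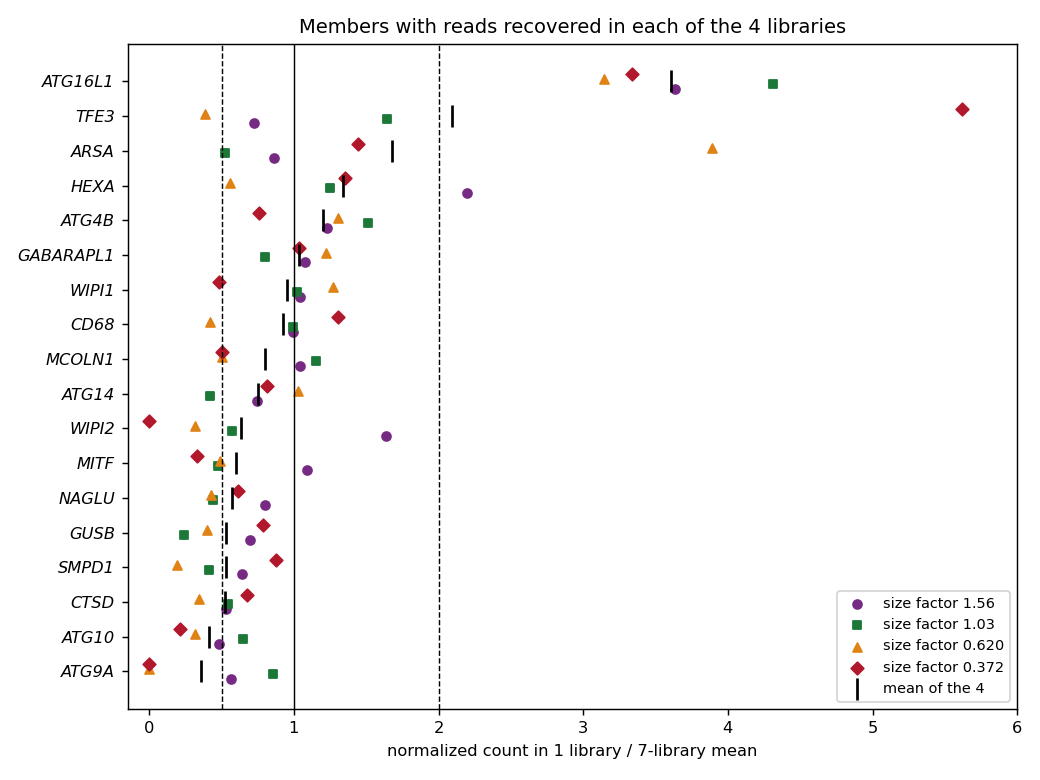
Normalized count in each of the 4 libraries (symbols, by size factor) divided by the 7-library mean, for the 18 members with recovered reads; the solid line marks the 7-library mean, dashed lines 2-fold, and black bars the mean of the 4. All 4 symbols lie right of the solid line for ATG16L1 and left of it for ATG10, and for TFE3 1 symbol (69.9 against 12.5 normalized counts) carries the mean.

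Other genes of the same pathways were taken from 6 lists, of which 98 genes had a row. At least 2-fold, 6 were higher in the 4-library mean and 8 lower, against 24.5% and 9.48% of all symbols, and their median log2 ratio was -0.08. The vacuolar ATPase, the proton pump that acidifies the lysosome, had no subunit at least 2-fold higher and 4 of 15 at least 2-fold lower, with a list median of -0.18. These were ATP6V1H (1.53 and 6.88, log2 ratio -2.17), ATP6V0C (10.6 and 25.1, -1.24), ATP6V0A1 (4.83 and 10.3, -1.09) and ATP6V0D1 (68.8 and 140, -1.02). Each of the 4 was below its 7-library mean in every one of the 4 libraries. They were picked as at least 2-fold lower, and their reads were recovered only because their 4-library means were low. Both favour such positions, which therefore add no support. ATP6V0D1, the most abundant of them, had normalized counts of 69.3, 57.4, 67.7 and 80.7. Only 2 of the 4, ATP6V0C and ATP6V0D1, had an overall mean of at least 10. Without the library of size factor 1.03 the count of lower subunits was 2, since ATP6V0A1 (-0.91) and ATP6V0D1 (-0.95) no longer passed 2-fold, and without that of size factor 0.372 it was 3 (ATP6V0A1 at -0.68). Another 2 of the 15 were at least 1.5-fold lower, the accessory protein ATP6AP1 (37 and 62.4, -0.75) and ATP6V1C1 (503 and 806, -0.68). This makes 6 in all, against 19% of all symbols. ATP6V1G1 alone was at least 1.5-fold higher (1262 and 769, 0.72), against 34.4% of all symbols. The others lay between -0.21 and 0.50, among them ATP6V1A, which carries the catalytic site (0.19), and the accessory protein ATP6AP2 (0.50).

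None of the 21 other lysosomal hydrolases with a row was 2-fold apart, and 14 of the 21 were lower in the 4-library mean (median -0.26), against 42.4% of all symbols and 49.4% of those with a mean of at least 10. With 1 of the 4 libraries left out, 3 weakly expressed ones passed 2-fold, PLBD2 and TPP1 without that of size factor 1.56 (-2.10 and -1.24) and PLBD2 and CTSW without that of 0.372 (-1.16 and -2.70). With 1 of the 7 left out, PLBD2 was 2-fold lower without those of size factor 1.73, 1.53, 1.19 or 0.702 (-1.05 to -1.12), and CTSF, at 0.46 with all libraries, was 2-fold higher without that of 1.17 (1.02) or 1.11 (1.08). Of 19 other membrane and sorting genes, 2 were at least 2-fold higher. LAPTM4A, a small protein of the late endosome and lysosome membrane, had means of 5892 and 2345 (log2 ratio 1.33), and VPS18, a core subunit of the tethering complexes that fuse vesicles with lysosomes, had means of 108 and 44.9 (1.26). CTNS, the cystine exporter, had means of 6.20 and 19.4 (-1.65), with all 4 libraries below the 7-library mean. CLCN7, the chloride-proton exchanger of the lysosome, had means of 0.641 and 1.32, from 4 reads in 1 of the 4 libraries and 11 reads in the 7, and the 2.06-fold lower value had an exact 95% counting interval of 0.609-fold to 8.85-fold. Without the library of size factor 1.10 in the 7-library group, which held 6 of the 11 reads, the log2 ratio of CLCN7 was 0.02, without that of 1.11 it was -0.95, and without any one of the 3 libraries of the 4 that held no read it was -0.62. VPS39, a subunit of the same tethering machinery as VPS18, had a log2 ratio of -0.13. Its weaker record had 2 reads in the 4 libraries, both in that of size factor 1.56, against 31 in the 7. The means of 0.321 and 3.28 (log2 ratio -3.35) did not pass the exact permutation test (p = 0.342, 0.618 after Benjamini-Hochberg adjustment). Without the library of size factor 1.17 in the 7-library group, which held 15 of the 31 reads, the log2 ratio was -2.40.

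Of 18 nutrient sensing genes, RRAGB, a GTPase that recruits MTORC1 to the lysosome, had means of 25.3 and 10.9 (log2 ratio 1.22), with all 4 libraries above the 7-library mean. Its second record pointed the other way (14 and 17.1, -0.29). The records were nearly equal in their mean over all libraries (16.1 and 15.9), so the 2-fold difference depends on which record stands for the gene. CASTOR1, an arginine sensor, had means of 2.42 and 5.96 (-1.30), from 11 reads in the 4 libraries, and its ratio was -0.88 without the library of size factor 0.372 and -1.89 without that of 1.03. Of 17 further autophagy genes, 3 were at least 2-fold higher. VMP1, an endoplasmic reticulum protein needed for autophagosome formation, had means of 3499 and 1434 (1.29), and ATG101, a subunit of the ULK kinase complex, had means of 159 and 76.8 (1.05). TP53INP2, which binds ATG8 proteins, had means of 2.69 and 0.498, from 4 reads, all in the library of size factor 0.372, against 4 reads in the 7 libraries, a 5.40-fold ratio with an exact 95% counting interval of 1.01-fold to 29.0-fold. Its log2 ratio of 2.43 rested on the library of size factor 0.372. Without that library the 4-library group held no read, so TP53INP2 was no longer higher there. The ratio was 3.16 without the library of size factor 1.19 in the 7-library group and 3.27 without that of 1.10, each of which held 2 of the reads. TP53INP2 did not pass the exact permutation test (p = 0.364, 0.618 after Benjamini-Hochberg adjustment). ATG4C, a relative of ATG4B, had means of 558 and 1171 (-1.07). None of the 8 selective autophagy receptors with a row reached 1.5-fold in its most abundant record, among them SQSTM1 (0.24). BNIP3L, a receptor for mitochondria, had means of 616 and 663 (-0.11) there, but its second record had means of 177 and 357 (-1.01), 2.01-fold lower in the 4-library mean.

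The list medians of neutrophil and platelet markers lay further from equal means than that of the members, a difference that was not tested. In a bulk sample, fewer cells of a type and less RNA per cell cannot be told apart. Of 16 neutrophil markers 11 had a row, 9 were at least 2-fold lower in the 4-library mean and 1 at least 2-fold higher, and the list median was a log2 ratio of -2.36. Their summed 4-library mean was 2232 normalized counts against 12714 in the 7-library mean, with S100A9 the highest in normalized counts (835 and 5429). All 6 platelet markers with a row, of 10 listed, were higher, 5 of them at least 2-fold, with a median of 1.74 and sums of 15280 and 4429, TUBB1 being the most abundant. Further list medians were -0.14 for monocytes and macrophages (11 of 17 with a row, sums of 3042 and 3755, most abundant LYZ), -0.88 for B cells (5 of 10, 2652 and 4347, JCHAIN), -0.68 for NK cells (3 of 10, 24.8 and 36.6, TBX21) and -0.41 for erythroid cells (3 of 10, 186 and 487, ALAS2). No marker with a row in these lists was at 0 in either mean.

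Markers also differed between the 4 libraries. The 7 neutrophil markers with recovered reads summed to 96.2, 254, 545 and 164 normalized counts in the libraries of size factor 1.56, 1.03, 0.620 and 0.372. These markers, too, entered by a low 4-library mean, so their sums are compared between the 4 libraries only. In the same order, the 3 platelet markers with recovered reads summed to 104, 115, 390 and 64.6, and the 4 of monocytes and macrophages to 156, 143, 110 and 175. The sums were 55.2, 36, 40.3 and 121 for 2 B cell markers, 23.1, 21.4, 22.6 and 32.3 for 3 NK cell markers and 7.06, 6.81, 37.1 and 21.5 for 2 erythroid markers. The library of size factor 0.620 had the highest sums of neutrophil, platelet and erythroid markers and the lowest sum of monocyte and macrophage markers. In this library 9 of the 18 members had their lowest value (1 of them tied) and 4 their highest, with no share of all rows given beside these counts. The part of these cell types in the values of the lysosome and autophagy genes was not tested.

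**Figure D5:**
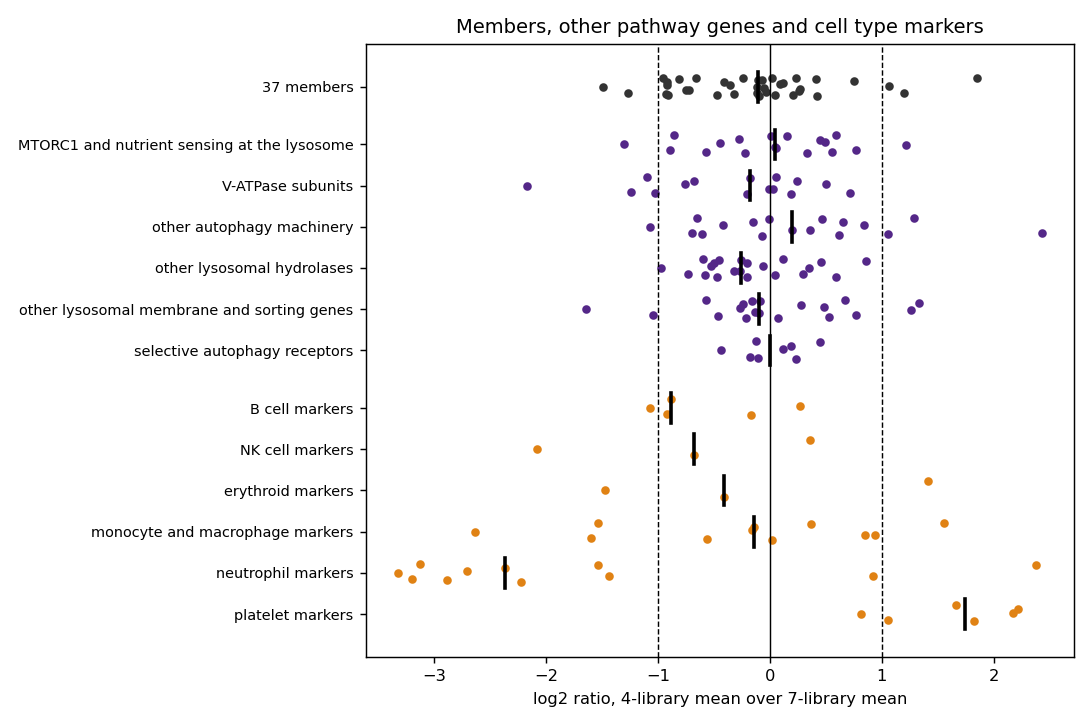
Log2 ratio (4-library over 7-library mean) of each gene (points) in the 37 members, the 6 other pathway lists and the 6 marker lists; bars are list medians and dashed lines mark 2-fold. The members centre on -0.11, whereas the neutrophil markers centre on -2.36 and the platelet markers on 1.74.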

How the data were processed

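The authors trimmed reads with Cutadapt, mapped them to TriManLat1.0 with Bowtie2, removed duplicates and counted uniquely mapped reads per gene sequence, with in-house scripts, SAMtools and DESeq in the DEB tool; the annotation release is not given in the sources read. The deposited signal is the mean of counts divided by size factors, over all libraries and per group. The table also holds the authors' fold change (the 7-library mean over the 4-library mean, opposite to the ratios here), log2 fold change, p-value and adjusted p-value, which were not used. The members and lists were chosen with earlier results of these data known.

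Symbols were assigned to 10080 of 15298 rows by RefSeq record without version number. With the version number 1658 matched, 1 member (WIPI1) among them, so a record may have been revised since. The row with the highest overall mean stood for a symbol. Records that share sequence may share reads. No transcript length was used, so the most abundant gene or record is only the one with the highest mean of normalized counts. Levels were not otherwise compared between genes.

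Means were compared as log2 ratios without a pseudocount. The weighting of 4 to 7 held within a relative deviation of 3.3e-09. Reads were recovered as the single combination of whole reads that gives the deposited mean. Rows searched were those with a 4-library mean up to 80 (9629 of 9634 recovered) or 100 (503 of 525 more), and a 7-library mean up to 6 (4296 of 4505). Rows with reads in all libraries were tested with the exact two-sided permutation test on the difference of mean normalized counts, with Benjamini-Hochberg adjustment over all 4279. Counting intervals are Clopper-Pearson intervals at 95% on the split of reads between groups, and cover counting error only. The recovery and the test were tried on simulated data, but the outcome is not reported here. P-values measure the spread between these animals.

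All members with a row are named. Both means are given for members at least 2-fold apart, the TFEB family, the 3 largest absolute log2 ratios in each role and the 2 nearest 0, and for other pathway genes at least 2-fold apart. Values by library are given for members with reads in all libraries, and for those at least 1.5-fold apart with reads in the 4. Other genes named were chosen after their values were seen. Of the marker lists, 1 is not reported here. Alternatives were a pseudocount of 1, a minimum overall mean of 10, centring, all records of a symbol, version-matched records, 1.5-fold and 4-fold, a log2(normalized count + 1) scale, narrower search limits, leaving out each of the 4 libraries (for other pathway genes, added after seeing the data) and, also added after seeing the data, each of the 7. Python 3 with numpy, pandas and scipy was used.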

Additional observations from a re-analysis of the deposited data

Results flagged for a closer look

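In 22 groups of libraries examined for members with recovered reads, 2 had a library far from the others. The cut-off gives about 1 in 20 by chance only for normally distributed values. These 2 groups held few reads and some libraries without a read, so their chance rate is not known and 2 of 22 is not read as an excess. For ATG9A, the library of size factor 0.702 in the 7-library group had 9.97 normalized counts, from 7 reads, and the next highest of that group had 2.31. For ARSA, a library of size factor 1.10 in the 7-library group had 14.5 normalized counts, from 16 reads, and the next highest had 5.87. Without its library the log2 ratio of ATG9A went from -1.49 to -0.29, and that of ARSA from 0.75 to 1.69, so each crossed 2-fold.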

How the results depend on the processing

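No paired analysis was possible because the columns carry no replicate number, although both groups use the same numbers in the labels. Those shared numbers mark no pairs in any case, since the red tide and control groups held different animals, sampled on different dates. The counts of members at least 2-fold apart (5 in all, 3 higher and 2 lower in the 4-library mean) stayed within 1.5 times when all records of a symbol were used. With a pseudocount of 1, or with a minimum mean of 10, 1 member was lower. Centring on the median of all rows gave 9 members, 7 of them lower, and medians of -0.25 for members and -0.22 for other pathway genes. This centring shifts every ratio alike, and no share of all symbols under it is given beside these counts. At 1.5-fold there were 15 members, 11 of them lower, and 34 other pathway genes, 16 higher and 18 lower. Of all symbols 34.4% were higher and 19% lower at 1.5-fold. At 4-fold there were 0 members, 0 higher and 0 lower, and 2 other pathway genes, 1 in each direction. Version-matched records left 0 members apart, 0 higher and 0 lower, since 1 member had such a record, and 3 other pathway genes, 2 higher and 1 lower, with a median of 0.36. The minimum mean of 10 gave 9 other pathway genes, 4 of them lower. Leaving out each of the 4 libraries gave 4 to 8 members at least 2-fold apart, of the 13 with a 4-library mean up to 80, 6 to 10 other pathway genes, against 9, and 2 to 4 lower V-ATPase subunits, against 4 (the last 2 chosen after seeing the data). The log2 ratio of TFE3 ranged from -0.12, reversed without the library of size factor 0.372, to 1.41. In 72 settings that left 1 of the 4 libraries out of the ratio of a gene, the sign changed in 5 (TFE3, ARSA, CD68, WIPI1 and GABARAPL1) and the 2-fold line was crossed in 10, by 8 genes (TFE3, MITF, WIPI2, GUSB, NAGLU, ARSA, SMPD1 and CTSD). In 28 settings that left out 1 of the 7, chosen after seeing the data, the sign changed in 0 and 2 crossed 2-fold (ATG9A and ARSA), so that of the 4 members with reads in all libraries 1 to 3 were at least 2-fold apart, against 2 with all libraries. On the log2 scale 791 rows had an unadjusted p under 0.05, and 0 passed adjustment, as with both means up to 6. Depth limits ATG9A, WIPI2 and ARSA most, with 4, 17 and 18 reads in the 4 libraries.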
